A study of Rattus norvegicus with 256 samples.

Results

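Skin was taken as the 9 arrays whose title and tissue label name the skin, out of 256 arrays in the series. They came from 4 male rats (numbers 1, 3, 4 and 5) and 5 female rats (numbers 1 to 5), with 1 array per animal and no pooling of RNA. The other 247 arrays covered 30 organs of the same animals, with 3 to 10 arrays per organ. Every rat was an untreated Han Wistar-derived animal (AlpkHsdBrlHan:WIST), housed in small groups and killed with halothane, and the labels give no age. Organs were cleaned of surrounding tissue and frozen, and RNA of low integrity was rejected before labelling. Each RAE230_2 array (Affymetrix) reports 31042 probesets as a log2 signal, on which 1 unit is a 2-fold difference. A mean above 6.65 counted as expressed, which is the background limit set in the study's methods. By that limit 9976 probesets were expressed in skin and 19649 in at least 1 organ. Array medians of the 9 skin samples were between 4.26 and 4.45, within the range of 3.86 to 4.45 over all arrays, and pairs of skin arrays correlated at r = 0.845 to 0.974 over the probesets expressed in skin (36 pairs). The signal of a tissue sample sums over its cells, so fewer cells of a type and less RNA per cell cannot be told apart. On 3 arrays of other organs (aorta male 3, heart male 5 and bone marrow female 2) a Y-linked gene and Xist both lay on the side of the other sex, and on 9 arrays, bone marrow male 5 among them, 1 of these genes did. The side was set by the middle of the range of 1 probeset per gene over all arrays. The pituitary and soleus females among the 9 lay below that middle on Xist, at 5.65 to 6.44. Males had 2.01 to 2.28 on that probeset in skin, so these females were not at the male level. No skin array was among those flagged. The number of probesets above every other organ was 136 with all arrays and also without those 3 and bone marrow male 5.

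Skin is an outer epidermis over a dermis of collagen-rich connective tissue, with hair follicles and sebaceous glands set into it. Basal keratinocytes divide on the basement membrane, and their daughters change keratins as they move outward, fill with cross-linked envelope proteins and die as the cornified layer. In rodents a thin sheet of striated muscle, the panniculus carnosus, lies under the dermis and fat. The label was checked against a marker of basal keratinocytes, Krt14 (keratin 14), and a marker of sebaceous glands, Elovl3 (an elongase of very long-chain fatty acids). Krt14 had a lowest, median and highest signal of 13.96, 14.07 and 14.19 on the skin arrays, against a highest organ mean elsewhere of 9.85 ± 0.24 in the thymus (SD, n = 8). Elovl3 had 9.20, 10.01 and 11.59 on the skin arrays, against 3.96 ± 0.26 in the pancreas (SD, n = 7), the next organ. On both probesets every skin array lay above every other array of the series. For Krt14 the array nearest to skin was a single uterus array at 13.32, while the other 4 uterus arrays had 2.55 to 6.25.

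**Figure D1:**
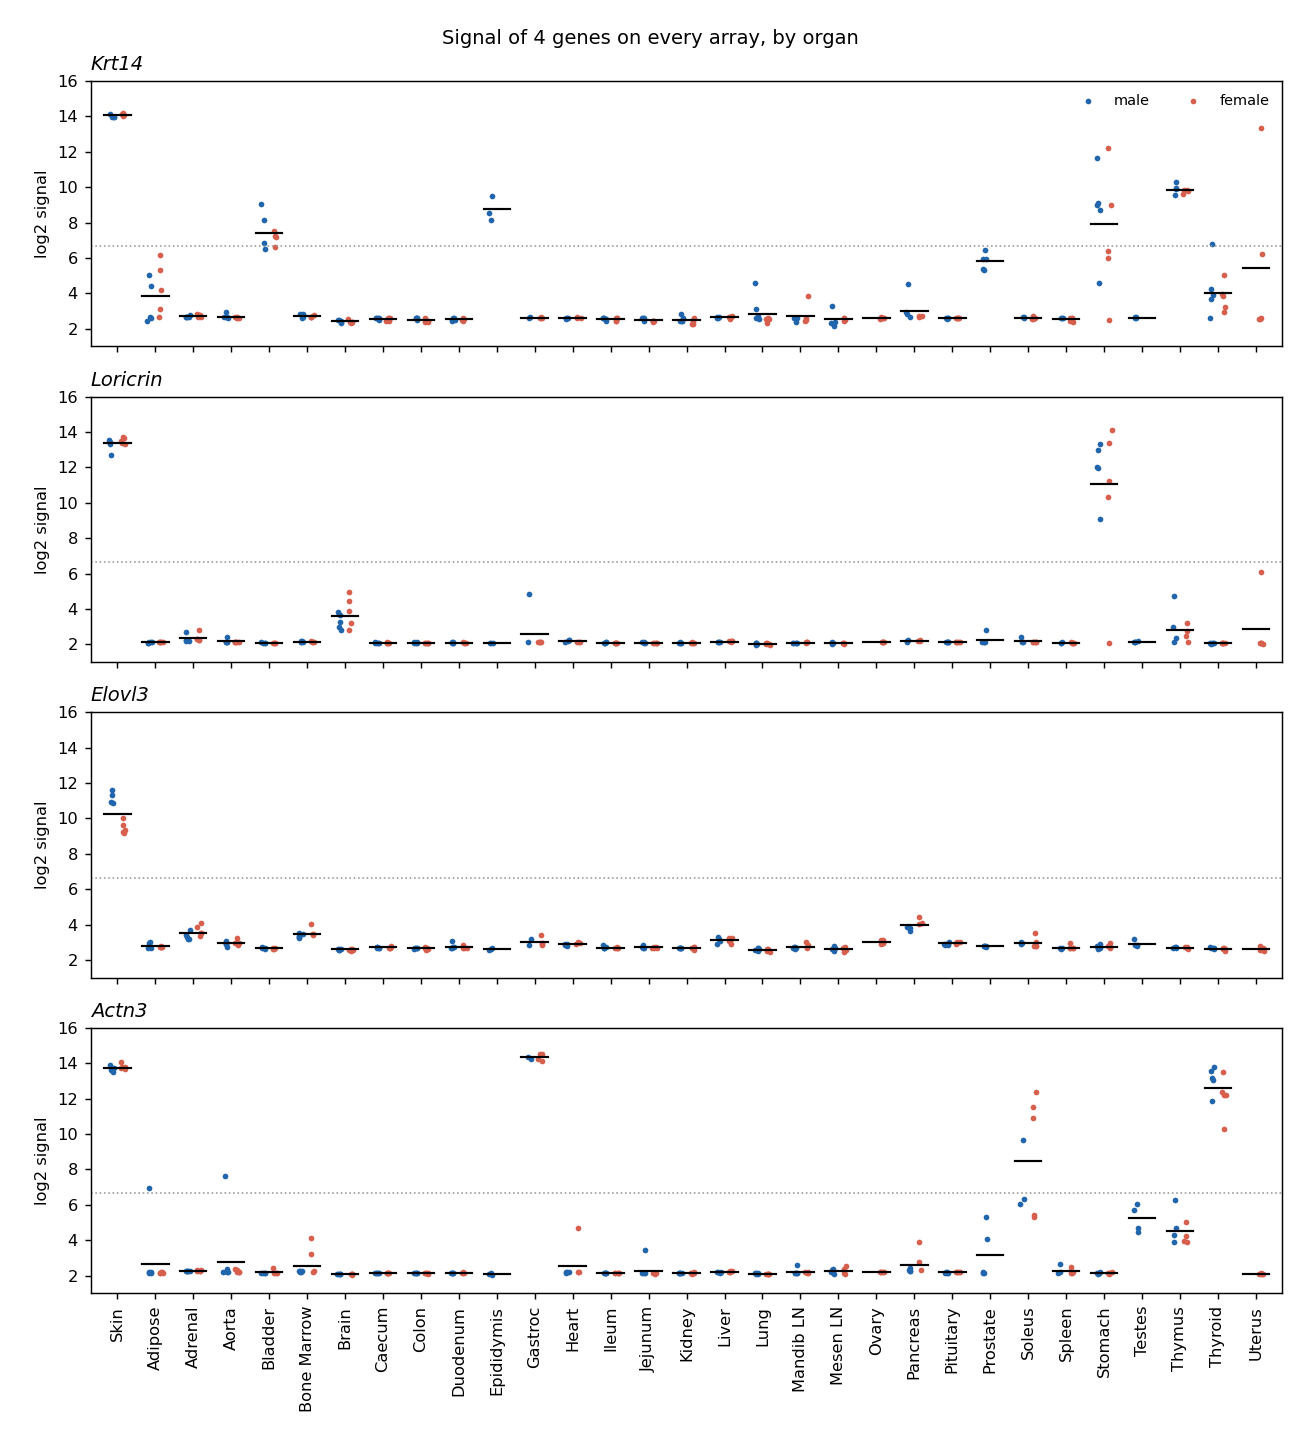
Log2 signal of Krt14, Loricrin, Elovl3 and Actn3 on every array, by organ, with skin at the left, male arrays in blue and female arrays in red. Black bars are organ means and the dotted line is the expression limit of 6.65. Krt14 and Elovl3 were highest on the skin arrays, Loricrin was high in skin and on most stomach arrays, and Actn3 was high in skin, gastrocnemius and thyroid arrays.

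To find which genes set skin apart, its mean was compared first with the mean of the other 30 organ means and then with each of those organs. In a limma fit over all arrays, 2216 probesets were higher in skin than the mean of the other organs, which is 7.14% of the 31042 tested, and 1864 were lower, or 6%. Both counts asked for an adjusted p under 0.05, a difference above 1 log2 unit and expression. The median difference over all probesets was -0.13. Of the 2216, 334 had their highest organ mean in skin. By the largest of the 30 one-sided p-values, 136 probesets were above every other organ by more than 1 log2 unit (0.438%), of which 100 carried a single symbol and stood for 85 genes. A further criterion, that every skin array lie above every other array of the series, was met by 51 probesets (0.164%), including 44 of the 136.

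These counts pool the spread over all organs, while the spread between animals differed from organ to organ. On some genes the next organ varied more than skin, such as Trim29 (SD 0.37 in skin, 2.87 in the stomach). On others skin varied more, such as Cyp2b12 (SD 3.04 in skin, 0.06 in the pancreas) and Krt86 (4.78 in skin, 1.30 in the soleus). When skin and each other organ were fitted apart, each pair with its own spread, 66 probesets were above every organ and 65 of them were among the 136. No probeset was below every other organ by limma at an adjusted p under 0.05, and 23 were at an unadjusted p under 0.05, none of these by more than 1 log2 unit. The nearest was Zfp91, a zinc finger protein, with a skin mean of 6.61 against 7.01 in the spleen, its lowest other organ.

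**Figure D2:**
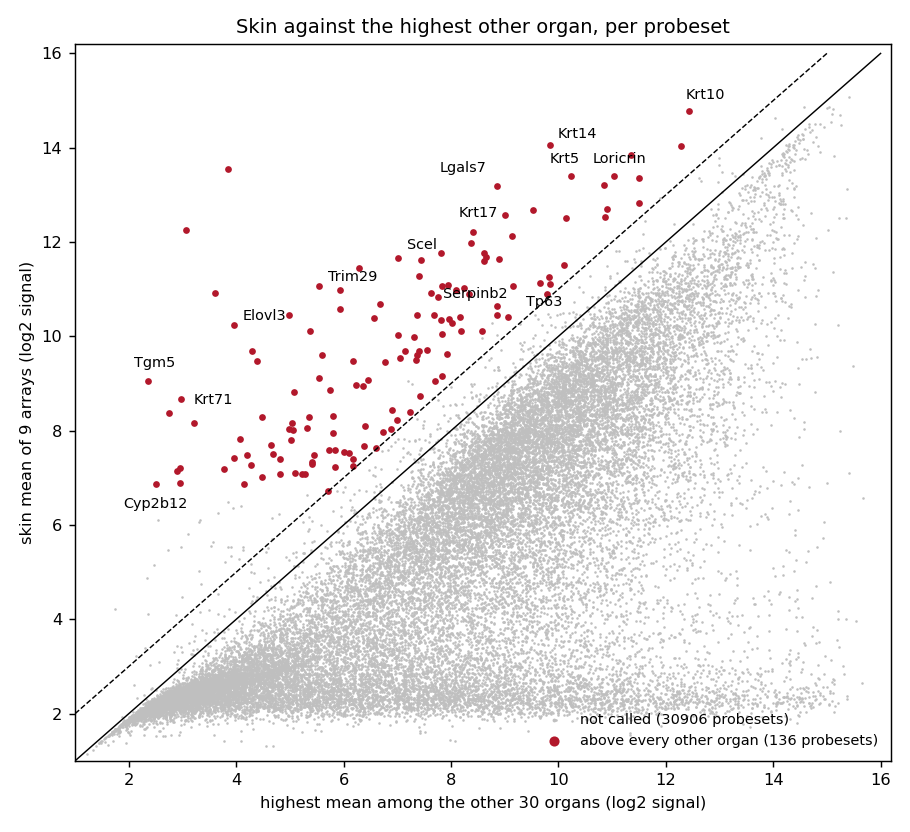
Mean log2 signal of each of 31042 probesets in skin (vertical) against the highest mean among the other 30 organs (horizontal). Red points are the 136 probesets above every other organ, the solid line marks equal means and the dashed line a margin of 1 log2 unit. Tgm5 and Elovl3 lie far to the left, at 2.36 and 3.96 in the highest other organ.

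The 25 named genes with the widest margin over the highest other organ were led by Tgm5 and Elovl3. Tgm5, a transglutaminase that cross-links cornified envelope proteins, had 8.36, 9.0 and 9.73 on the skin arrays (lowest, median and highest), against 2.36 ± 0.66 in the uterus (SD, n = 5), its next organ. Its margin was 6.69, with a limma adjusted p of 2.24e-153 in the pooled fit and 6.2e-08 when organs were fitted apart. Elovl3 followed with a margin of 6.28. For both genes the next organ was below the expression limit of 6.65, so the margin is not read as a fold of expression. All 9 skin arrays lay above the highest array of the next organ for both genes. Trim29, a tripartite-motif protein found in stratified epithelia, had a skin mean of 11.06 ± 0.37 (SD, n = 9), against 5.55 ± 2.87 in the stomach (SD, n = 10). Clca4l, of the chloride channel regulator family, had 10.46 ± 1.01 in skin, against 4.99 ± 0.40 in the testes (SD, n = 4). Both were also called by limma with organs fitted apart, at adjusted p = 0.00479 and 0.000118. Among the 25 genes with the widest margins, 15 were called in the separate fits and 10 were not: Krt71, Krt33b, Krt6c, Cyp2b12, Lgals7, Kplce, Krt86, Dsg1, Ivl and Wfdc5, at adjusted p from 0.076 to 1. A further 3 probesets, which the platform annotation pairs with no gene, had wider margins than any named gene. Their skin means were 13.54, 12.25 and 10.93, against 3.84 in the soleus, 3.07 in the pancreas and 3.60 in the aorta.

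The basal layer was described by 14 measured genes of basal keratinocytes and hemidesmosomes, the plaques that anchor them to the basement membrane. In skin 12 of the 14 were higher than the mean of the other organs and none was lower, with a median difference of 2.93 (-0.13 over all probesets). For this list and those below, the shares over all probesets were 7.14% higher, 6% lower and 0.438% above every organ. Krt5, the keratin that pairs with Krt14, had 12.90, 13.48 and 13.79 on the skin arrays, against 10.24 ± 0.44 in the thymus (SD, n = 8). Tp63, the transcription factor that maintains stratified epithelium, had a skin mean of 11.06 ± 0.42, against 9.16 ± 0.18 in the bladder (SD, n = 8). Col17a1, the transmembrane collagen of the hemidesmosome, had 10.89 ± 0.79 in skin, against 8.34 ± 0.52 in the bladder. With Krt14 these were the 4 basal genes above every other organ, and all 4 were called in the separate fits too. Krt15, a keratin of basal and follicular cells, was close behind in the bladder, with 13.79 ± 0.23 in skin against a bladder mean of 13.00. Itgb4, the hemidesmosomal integrin beta 4, had 10.46 in skin, against 11.27 in the duodenum. The laminin chain genes Lamb3 and Lama3, whose products anchor that plaque, had 10.23 and 7.99 in skin, against 10.13 in the caecum and 8.37 in the ileum. The highest other organ thus differed from gene to gene within the basal list.

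The keratins and envelope proteins of the outer epidermis were described by 26 measured genes. Of these 23 were higher than the mean of the other organs, none was lower, and 15 were above every organ in the pooled fit (5 with organs fitted apart), with a median difference of 7.40. Promoter sequences are shown for Loricrin and Krt10 of this layer, for the hair genes Krt71, Krt25 and Tchh, and for Krt5 and Elovl3 for contrast, because the motif TATAAA was found in the first 5 and not in the last 2. The letters TATAAA were searched on both strands of the RefSeq promoter windows (GRCr8), and on the sense strand from 60 to 15 bases before the start alone. That narrow window held the motif in 2.24% of 33469 promoters, in 15.4% of 65 genes above every other organ that had a promoter in the table, in 27.3% of 22 envelope genes and in 33.3% of 12 hair shaft genes. It held the motif in 0 of 10 basal genes and in 31.8% of 22 skeletal muscle genes. Over the whole window and both strands the shares were 14.2% of all promoters and 23.1% of the 65. The bases before the start are printed 5′ to 3′ in the direction of the gene, with the motif in capitals.
Loricrin, chr2:180256573-180256722, minus strand: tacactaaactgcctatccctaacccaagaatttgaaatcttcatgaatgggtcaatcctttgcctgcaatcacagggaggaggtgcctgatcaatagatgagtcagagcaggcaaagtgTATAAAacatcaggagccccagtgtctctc
Krt10, chr10:84839161-84839310, minus strand: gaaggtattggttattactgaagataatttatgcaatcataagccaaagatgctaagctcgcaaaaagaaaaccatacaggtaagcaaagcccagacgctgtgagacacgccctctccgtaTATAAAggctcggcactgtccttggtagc
Krt71, chr7:134761034-134761183, minus strand: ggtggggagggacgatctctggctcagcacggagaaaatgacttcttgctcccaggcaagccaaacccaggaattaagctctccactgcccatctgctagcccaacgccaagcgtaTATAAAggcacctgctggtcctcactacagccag
Krt25, chr10:84771198-84771347, minus strand: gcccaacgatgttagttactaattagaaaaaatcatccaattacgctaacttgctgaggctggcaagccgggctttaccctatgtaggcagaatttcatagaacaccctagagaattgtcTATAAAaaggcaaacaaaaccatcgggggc
Tchh, chr2:181786959-181787108, plus strand: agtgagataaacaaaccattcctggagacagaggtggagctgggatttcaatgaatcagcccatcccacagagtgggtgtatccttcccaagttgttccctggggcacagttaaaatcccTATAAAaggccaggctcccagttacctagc
Krt5, chr7:134730570-134730719, minus strand: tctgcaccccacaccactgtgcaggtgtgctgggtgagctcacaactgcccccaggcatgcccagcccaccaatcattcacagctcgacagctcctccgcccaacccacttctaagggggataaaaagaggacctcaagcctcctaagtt
Elovl3, chr1:254938581-254938730, plus strand: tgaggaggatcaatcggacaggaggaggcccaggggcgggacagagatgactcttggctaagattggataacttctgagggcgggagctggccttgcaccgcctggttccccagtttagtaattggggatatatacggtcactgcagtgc
In the 5 promoters with the motif its first base lay 29 to 34 bases before the start. A match of letters is a description of the window, and binding was not measured here. Only the exact letters were searched, so near matches such as gataaaa in Krt5 and gatatata in Elovl3 were not counted.

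Loricrin, the main protein of the cornified envelope, had 12.70, 13.45 and 13.71 on the skin arrays (lowest, median and highest). In the stomach, its next organ, it had 2.10, 11.98 and 14.13 over 10 arrays, and 4 stomach arrays reached the lowest skin array. Beyond those organs its highest mean was 3.59 ± 0.71 in the brain (SD, n = 10). Krt10, the keratin of cells that have left the basal layer, averaged 14.78 ± 0.32 in skin, against 12.44 in the stomach, and its partner Krt1 averaged 12.71 ± 0.62 against 10.89 ± 3.46. Lgals7, the galectin of stratified epithelia, had 12.62, 13.22 and 13.47 on the skin arrays, against 2.02, 9.22 and 12.96 on the stomach arrays. Cdsn, which encodes corneodesmosin, the adhesion protein of cornified cells, averaged 10.98 ± 0.40 in skin, against 5.93 ± 2.90 in the stomach. Scel, which encodes the envelope precursor sciellin, averaged 11.66 ± 0.31 in skin, against 7.01 ± 2.63. Apart from Scel, the skin and stomach arrays overlapped on each of these genes. A rat stomach includes a forestomach with a keratinised squamous lining, and the mean of the 26 genes ran from 4.32 to 12.26 over the 10 stomach arrays while it kept between 10.05 and 10.97 over the 9 skin arrays. Over the same stomach arrays Pgc (pepsinogen C, of the glandular stomach) stayed between 14.64 and 15.34. The stomach was the highest other organ of 46 of the 136 probesets (33.8%), ahead of the bladder with 15 and the epididymis with 10.

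Some envelope genes did not follow the list. Sprr3, a small proline-rich envelope protein, was at 2.04 ± 0.02 in skin, against 10.19 in the stomach. Sprr1a, another of that family, had 12.28 in skin, against 13.62 in the bladder. Tgm1, the membrane-bound transglutaminase of keratinocytes, had 8.03 ± 0.56 in skin, against 8.11 in the spleen, and Tgm3, which acts in the envelope and the hair follicle, had 7.96 ± 0.72, against 5.80 in the stomach. Within the transglutaminases, then, Tgm5 and Tgm3 were called above every other organ and Tgm1 was not.

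Cell junctions of keratinocytes gave 11 of 15 measured genes higher than the mean of the other organs, 1 lower and 5 above every organ, with a median difference of 4.55. With organs fitted apart 2 of the 15 were above every organ, and Dsg1 was not among them (limma adjusted p = 0.0936). Pkp1, a desmosomal plakophilin, had 11.20, 11.72 and 11.98 on the skin arrays, against 7.45 ± 2.07 in the stomach, and Dsg1, the desmoglein of outer epidermis, averaged 10.40 ± 1.08, against 6.56 ± 2.65. Cldn1, the claudin of the epidermal tight junction, averaged 9.72 ± 0.81, against 7.55 ± 0.56 in the liver (SD, n = 9). The 1 gene that was lower was Pkp2, a plakophilin of heart and simple epithelia, at 3.71 ± 0.33 in skin against 10.63 in the heart. Epidermal proteases and their inhibitors gave 8 of 10 higher and 2 above every organ. These 2 were Klk10, a kallikrein-related protease, at 9.70 ± 0.59 against 4.30 ± 2.27 in the stomach, and Serpinb2, a serine protease inhibitor, at 10.93 ± 0.76 against 7.62 ± 0.56 in the bone marrow (SD, n = 9). Barrier lipid synthesis had 6 of 12 genes higher, 2 lower and a median difference of 1.62. Its genes above every organ were the epidermal lipoxygenases Alox12e, at 7.64 ± 0.66 in skin against 6.61 ± 0.44 in the thymus, and Aloxe3, at 7.09 ± 0.66 against 5.28 ± 0.69 in the heart (SD, n = 7). Neither was called when organs were fitted apart.

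Transcription factors of stratified epithelium and body position were split. Of 21 measured, 11 were higher than the mean of the other organs, 3 were lower and 3 were above every organ. Besides Tp63, Grhl1 (a grainyhead-like factor of epidermal differentiation) had 10.64 ± 0.51 in skin, against 8.85 ± 0.17 in the prostate (SD, n = 5). Tfap2c (an AP-2 factor of ectoderm) had 8.01 ± 0.54, against 5.06 ± 0.36 in the prostate. The 3 that were lower were Elf3, Ehf and Hoxb6, at 2.61, 2.40 and 3.43 in skin, against 10.46 in the caecum, 7.58 in the colon and 10.90 in the epididymis. Elf3 and Ehf encode epithelial ETS factors, and Hoxb6 encodes a homeobox factor of trunk position.

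Hair follicle genes were high in skin and uneven between animals. Of 17 measured genes of the hair shaft and inner root sheath, 10 were higher than the mean of the other organs, none was lower and 6 were above every organ, with a median difference of 4.20. With organs fitted apart 2 of the 17 were above every organ. Krt17 and Krt79, keratins of the follicle's outer sheath and upper duct, were steady over the 9 skin arrays. Krt17 had 11.52, 12.13 and 12.75 on them, against 8.41 ± 0.49 in the thymus, and Krt79 had 10.46, 11.36 and 11.99, against 7.41 ± 2.07 in the uterus. The keratins of the shaft and inner sheath were not steady. Krt25, of the inner root sheath, had 11.42, 7.13, 14.44 and 14.35 in males 1, 3, 4 and 5, against 11.58, 10.86, 2.98, 2.93 and 2.80 in females 1 to 5. Krt86, of the hair cortex, had 4.61, 3.24, 12.96 and 13.40 in the same males, against 10.47, 10.25, 2.37, 2.38 and 2.39 in the females. Males 4 and 5 were high, females 1 and 2 came next, and females 3, 4 and 5 were low, so the sexes overlapped on both genes. Neither was called between the sexes by limma (adjusted p = 0.426 and 0.713).

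The same order of animals recurred over other genes of the follicle. Among the 9976 probesets expressed in skin, 21 had an SD over 2 log2 units across the 9 arrays, and 15 of them had males 4 and 5 as their highest arrays. In 9 of these 15, females 3, 4 and 5 were also the lowest. The share of all expressed probesets with that order was not counted, so these counts are a description. Tchh (trichohyalin, the granule protein of the inner root sheath) ran from 3.04 to 13.97, Mt4 (a metallothionein of stratified epithelium) from 2.31 to 14.09, S100a3 (a hair cuticle calcium-binding protein) from 4.13 to 13.60 and Gjb2 (connexin 26) from 6.67 to 13.03. Krt71 had 9.20, 7.06, 12.20 and 12.55 in males 1, 3, 4 and 5, against 10.20, 9.18, 5.88, 6.47 and 5.36 in females 1 to 5. The mean of the 17 hair genes was 6.63, 5.41, 10.44 and 10.74 in those males, against 7.99, 7.79, 5.00, 5.00 and 4.74 in the females. The median SD of the list was 2.34 in skin, against 0.02 to 0.63 in the other organs. Krt71, Krt33b and Krt86 had highest other organ means of 2.97, 2.74 and 2.95, below the expression limit. Krt25 and Tchh passed that limit in 1 other organ each. Where a gene is below the limit its SD carries little information, so these list SDs do not compare the variation of expressed genes. Over all expressed probesets the median SD was 0.31 in skin, within the range of 0.21 to 0.41 elsewhere. Leaving out single skin arrays gave 17 to 28 probesets with an SD over 2. The labels give no stage of the hair cycle.

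**Figure D3:**
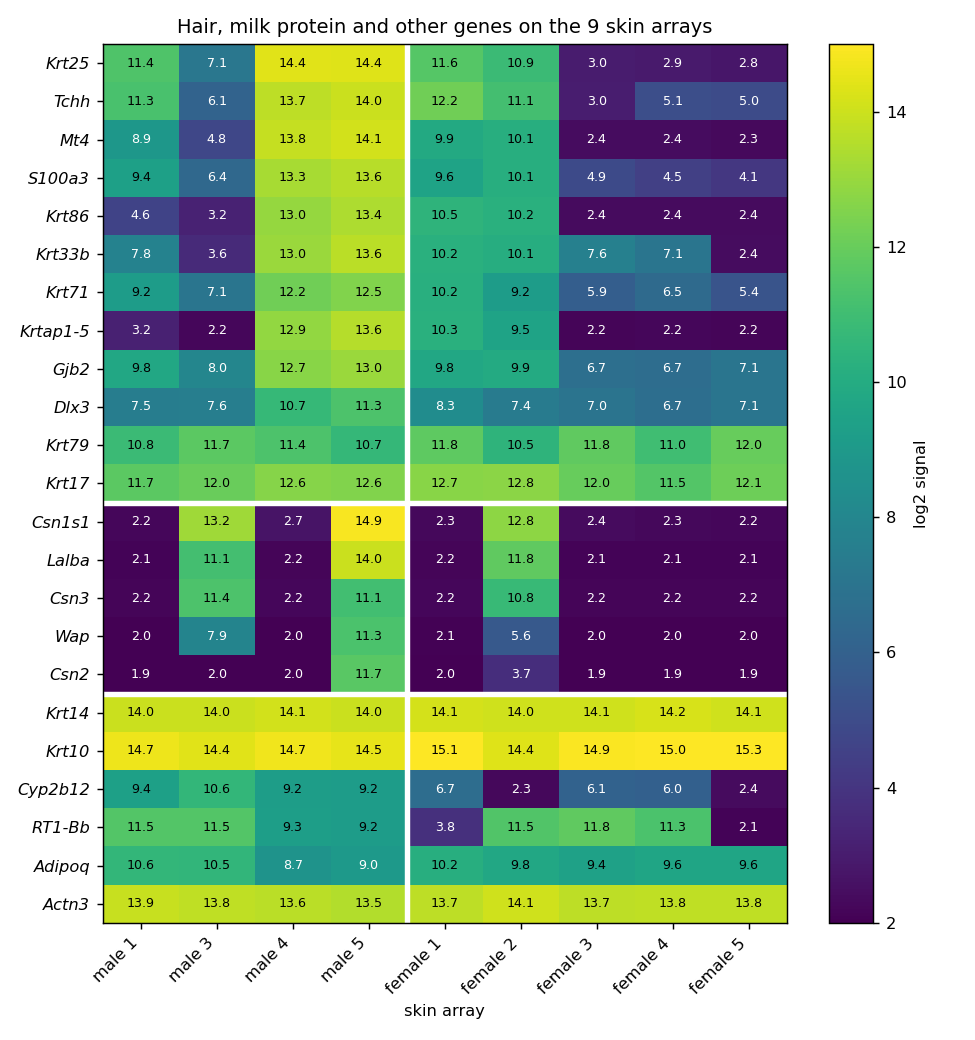
Log2 signal of named genes (rows) on the 9 skin arrays (columns), males to the left of the vertical white line and females to the right, with the value printed in each cell. Hair genes from Krt25 to Dlx3 are highest in males 4 and 5 and low in females 3 to 5, except that Krt33b reads 7.65 and 7.07 in females 3 and 4. Csn1s1, Lalba and Csn3 are high in males 3 and 5 and female 2, and Krt14 and Actn3 vary little.

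Other list means stood apart in males 4 and 5 as well. Over the probesets expressed in skin, these arrays correlated at r = 0.962 with each other and at 0.845 to 0.912 with the other 7. Those 7 correlated at 0.910 to 0.974 among themselves. Of 24 lists, the mean of 7 was lower in both of these males than in any other skin animal, for adipocytes, smooth muscle, mast cells, Langerhans cells and macrophages, T and B cells, endothelium and Schwann cells. Means of adipocyte genes were 7.80 and 7.71 in males 4 and 5, against 8.26 to 8.78 on the other 7 skin arrays, and means of the Langerhans and macrophage list were 8.24 and 8.23, against 8.97 to 9.80. Means of 3 lists were higher in both males than in any other skin animal, for desmosomes, hair shaft and hair follicle signals. The share of all probesets with both males lowest or highest was not counted, so nothing about these cell types is read from the lists. The part of tissue makeup in the hair result was not tested. Krt86, Krt71 and Krt33b had the soleus as their highest other organ, and this rested on the array of female 4, where they had 6.17, 8.24 and 6.73. On the other 7 soleus arrays these genes had 2.43 to 2.59, 2.16 to 2.48 and 2.16 to 2.23.

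Signals and transcription factors of the follicle were a list of 28 measured genes. Of these 12 were higher than the mean of the other organs and 3 were above every organ. Lhx2, a LIM homeobox factor of follicle stem cells, had 9.82, 10.59 and 10.75 on the skin arrays, against 8.17 ± 1.06 in the brain (SD, n = 10). Hr, the nuclear corepressor hairless, averaged 9.46 ± 0.47, against 6.78 ± 0.60 in the bladder. Dlx3, a homeobox factor of hair and epidermis, had 10.70 and 11.35 in males 4 and 5 and between 6.70 and 8.32 on the other skin arrays, and its next organ was bone marrow at 5.03 ± 0.61. Shh, the hedgehog signal of the growing follicle, was at 2.34 ± 0.05 in skin, below the expression limit, as was Fgf5, a growth factor that ends hair growth, at 2.16 ± 0.07.

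Genes of the sebaceous gland and its lipids gave 20 of 35 higher than the mean of the other organs, 4 lower and 3 above every organ, with a median difference of 1.35. The 3 were Krt79, Elovl3 and Cyp2b12, a cytochrome P450 of rat sebaceous glands. Cyp2b12 had 9.38, 10.63, 9.22 and 9.17 in males 1, 3, 4 and 5, against 6.65, 2.27, 6.11, 5.99 and 2.39 in females 1 to 5, with 2.50 ± 0.06 in the pancreas, its next organ. All 4 males were above all 5 females, yet the sex difference was not called by limma (4.91, adjusted p = 0.133). Its call above every other organ was lost in 6 of 23 alternatives, among them the fit on female arrays and the separate fits, in which 2 of the 35 genes were called. Lipid synthesis genes of the list that were higher than the mean of the other organs could be higher still elsewhere. Scd, a fatty acid desaturase, had 10.01 in skin, against 14.07 in adipose, and Fasn, the fatty acid synthase, had 11.34, against 14.24 in the aorta, whose arrays also had the highest mean of the brown fat gene Ucp1 at 14.77. Mc5r, the melanocortin receptor of sebaceous glands, was at 2.60 ± 0.68 in skin, below the expression limit.

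**Figure D4:**
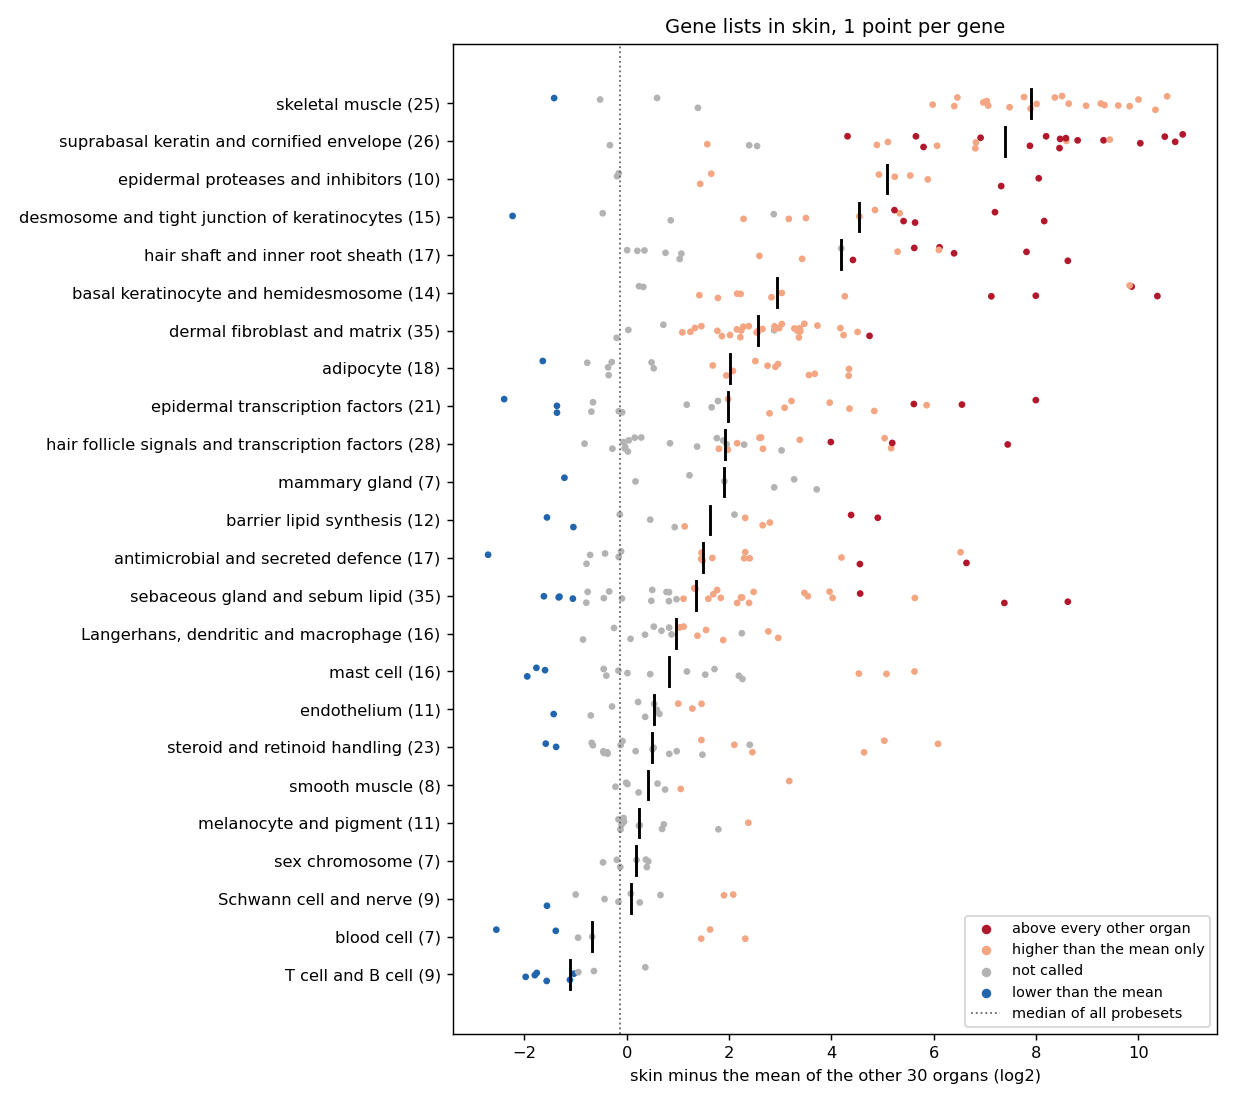
Difference between the skin mean and the mean of the other 30 organs in log2 units, with 1 point per gene of 24 lists (number of measured genes in brackets) and a black bar at each list's median. Dark red genes were above every other organ, orange genes higher than the mean only, blue genes lower, and the dotted line is the median of all probesets at -0.13. The medians of the muscle and envelope lists, 7.90 and 7.40, lie farthest to the right.

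Skeletal muscle genes had the highest median difference of the 24 lists, 7.90, but none was above every other organ. Of 25 measured, 21 were higher than the mean of the other organs and 1 was lower. The genes of fast fibres given here were high in skin, and those of slow fibres, Myh7, Tnnt1 and Tnni1, were below the expression limit. Myh4, the fastest myosin heavy chain of rat limb muscle, averaged 13.75 ± 0.23 in skin (SD, n = 9), against 14.35 ± 0.30 in the gastrocnemius (SD, n = 6) and 8.17 ± 3.40 in the soleus (SD, n = 8). Pvalb, the calcium buffer parvalbumin, averaged 12.89 ± 0.48 in skin, against 13.91 and 7.94 in these muscles, and Actn3, the alpha-actinin of fast fibres, averaged 13.76 ± 0.16, against 14.34 and 8.45. Myh7, the slow myosin heavy chain, averaged 2.43 ± 0.22 in skin, against 13.24 in the gastrocnemius and 15.06 in the soleus, and Tnnt1, slow troponin T, averaged 4.38 ± 1.19, against 11.86 and 14.41. The skin arrays of all 9 animals held the fast fibre genes, with Myh4 between 13.28 and 14.02.

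Connective tissue of the dermis was high in skin and in other fibrous organs. Of 35 measured genes of fibroblasts and matrix, 31 were higher than the mean of the other organs, none was lower and 1 was above every organ, with a median difference of 2.57. That gene was Col7a1, the anchoring fibril collagen under the epidermis, at 8.10 ± 0.76 in skin against 6.39 ± 1.10 in the epididymis (SD, n = 3), and it was not called with organs fitted apart. Col1a1 and Col1a2, the chains of type I collagen, had 14.86 and 14.64 in skin, against 14.56 in the uterus and 14.04 in the bladder. Eln, which encodes elastin, had 8.73 in skin, against 12.46 in the aorta. Adipocyte genes gave 11 of 18 higher, 1 lower and none above every organ (7.14%, 6% and 0.438% over all probesets). Adipoq, the hormone adiponectin, averaged 9.72 ± 0.65 in skin, against 13.23 in adipose, and Lep, the hormone leptin, was at 2.54 ± 0.39, against 10.23. Smooth muscle genes gave 2 of 8 higher than the mean and 7 of 8 lower than in the stomach, with Actg2, an enteric actin, at 8.98 in skin and 14.01 in the stomach.

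Pigment and immune cells were described next. Over all probesets, 7.14% were higher and 6% lower than the mean of the other organs. A single call in a short list is not read as a result about its cell type. Of 11 melanocyte genes 1 was higher than the mean of the other organs, Mitf, the melanocyte and macrophage transcription factor, at 8.49 ± 0.39. The pigment enzymes Tyr and Tyrp1 and the melanosome protein Pmel were at 2.18, 2.12 and 2.21 in skin, below the expression limit. Mast cell genes gave 3 of 16 higher and 3 lower. Cma1, the chymase of connective tissue mast cells, averaged 9.53 ± 0.44 in skin, against 9.32 in bone marrow, and Cpa3, mast cell carboxypeptidase, averaged 9.66 ± 0.39, against 9.98 in adipose. Mcpt1, the protease of mucosal mast cells, was at 2.31 ± 0.15, against 10.20 in the caecum. Of 16 genes of Langerhans cells, dendritic cells and macrophages, 7 were higher and none was lower. T and B cell genes gave 0 of 9 higher and 6 lower, with a median difference of -1.11. Endothelial genes gave 3 of 11 higher and 1 lower, Schwann cell and nerve genes 2 of 9 higher and 1 lower, and blood cell genes 3 of 7 higher and 2 lower. RT1-Bb, a class II histocompatibility gene, was uneven, with 3.82 and 2.12 in females 1 and 5 and 9.19 to 11.81 in the other 7 animals.

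Antimicrobial and secreted defence genes gave 11 of 17 higher, 1 lower and 2 above every organ (7.14%, 6% and 0.438% over all probesets). Ccl27, the chemokine that draws T cells to skin, had 9.51, 11.11 and 11.94 on the skin arrays, against 8.24 ± 0.26 in the brain (SD, n = 10). Il36rn, the interleukin 36 receptor antagonist, averaged 7.29 ± 0.81, against 5.42 ± 2.80 in the stomach. Camp, which encodes cathelicidin, and Defb4, a beta-defensin, were at 2.06 and 2.11 in skin, below the expression limit. In the list of steroid and retinoid handling 6 of 23 were higher and 2 lower. Crabp2, a cytosolic carrier of retinoic acid, averaged 10.12 ± 0.52 in skin, against 10.86 in the ovary, and Cyp26b1, which degrades retinoic acid, averaged 10.46 ± 0.50, against 9.97 in the testes.

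A few of the 25 genes furthest below the mean of the other organs are given here, picked after their values were seen. The 25 also hold genes of other kinds, such as Tcf21, Jchain, Tnfrsf14 and Plod2. Krt8 and Krt18, the paired keratins of simple epithelium, averaged 4.33 ± 1.97 and 3.88 ± 2.36 in skin, against 8.08 and 8.0 over the other organs. Krt18 had 6.96, 7.05 and 7.07 in male 3, male 5 and female 2, and 2.26 to 2.34 on the other skin arrays. Krt8 had 5.58, 7.51 and 6.91 on those 3 arrays and 2.00 to 4.54 on the others. The same 3 arrays had the high milk protein genes given at the end. As the highest arrays for both keratins, they raised these skin means. Pigr, which carries antibodies across mucosa, averaged 2.83 ± 1.55, against 7.24, and Cldn7, a claudin of simple epithelia, averaged 3.32 ± 0.74, against 6.46. Car2, which encodes carbonic anhydrase 2, averaged 5.08 ± 1.80, against 8.94. These were uneven too. Pigr had 6.53 in male 5 and 4.12 in female 2, and 1.88 to 2.57 on the other skin arrays. Cldn7 was highest in female 2, at 4.89. Car2 had 9.10 in male 5 and 3.59 to 5.83 on the other skin arrays.

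Skin was set against the stomach because both hold a keratinised squamous epithelium. In skin 2009 probesets were higher than in the stomach (6.47%) and 1692 were lower (5.45%). The 10 genes with the widest differences in each direction were not genes of that epithelium. Higher in skin were the muscle genes Myl11, Actn3, Atp2a1, Myl1, Tnnt3, Myh4, Ttn, Pvalb and Tnni2, together with Mlf1, by 10.12 to 11.85 log2 units. Lower in skin were genes of the glandular stomach, among them Pgc, the gastrokines Gkn1 and Gkn2, the proton pump subunits Atp4a and Atp4b, the mucin Muc5ac and intrinsic factor (Cblif). Atp4b averaged 1.94 ± 0.02 in skin, against 14.48 ± 0.44 in the stomach (SD, n = 10). Lower in skin as well were Pla2g1b and Clps, a phospholipase and a lipase cofactor of the pancreas. Of the 26 envelope genes 21 were higher in skin than in the stomach and 3 were lower, namely Sprr1b, Lce1f and Sprr3, while a fit on skin and stomach alone gave 17 higher and 1 lower. Of the 14 basal genes 8 were higher and none was lower. Of the 17 hair genes 10 were higher and none was lower, and Krt71 had 8.68 ± 2.66 in skin, against 2.16 in the stomach.

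Likeness of organs was read as the Pearson correlation of organ means over the 19649 probesets expressed in any organ, with skin. The bladder (r = 0.857), thyroid (0.849), adipose (0.838), stomach (0.831) and uterus (0.829) were most like skin, and the testes (0.461), brain (0.562) and liver (0.646) least. All points share the normalization and the arrays of the same animals, and the values are a description. The number of probesets that differed from skin by the same criteria was 3052 for the bladder and 9259 for the testes.

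Male and female skin were compared because the study asked which genes are expressed differently between the sexes in each organ. In skin 6 probesets were higher in males (0.0193%) and 15 were higher in females (0.0483%), by limma at an adjusted p under 0.05, above 2-fold and expressed in at least 1 sex. Of all 31042 probesets, 3847 had an unadjusted limma p under 0.05, with no limit on fold or expression. Many of these can arise by chance among so many tests. Eif2s3y, a Y-linked initiation factor gene, was higher in males by 7.56, and 4 probesets of Xist, the RNA that silences an X chromosome, were higher in females, so the labels of sex were borne out on all 9 skin arrays.

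Among the named autosomal genes that were called, Elovl3 had the largest difference towards males. It had 10.88, 10.94, 11.59 and 11.33 in males 1, 3, 4 and 5, against 9.36, 9.20, 9.61, 10.01 and 9.23 in females 1 to 5. The difference was 1.70 (SE 0.21, limma adjusted p = 0.0414). Every male lay above every female. Sult5a1, a sulfotransferase gene, averaged 9.81 ± 0.40 in males (SD, n = 4) and 8.23 ± 0.23 in females (SD, n = 5), and Dusp6, a phosphatase of ERK kinases, averaged 9.27 ± 0.25 in males and 8.26 ± 0.17 in females. The other probesets of Dusp6 were not called, at differences of 0.93 and 1.44.

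The named genes higher in females had differing roles. Akr1c14, a 3-alpha-hydroxysteroid dehydrogenase of the rat, had 5.74, 5.70, 5.37 and 6.42 in males 1, 3, 4 and 5, against 8.04, 9.39, 9.36, 9.73 and 10.20 in females 1 to 5, a difference of -3.54 (SE 0.42, limma adjusted p = 0.0414). All 3 of its probesets were called. Mybph, a myosin-binding protein of skeletal muscle, had 4.97, 4.53, 6.26 and 4.30 in the males, against 7.73, 8.47, 8.63, 8.08 and 8.28 in the females. Akr1b8, an aldose reductase family member, had 7.28 ± 0.07 in males and 8.63 ± 0.25 in females. Cfd (adipsin, a complement protease of fat cells) averaged 10.98 ± 0.45 in males and 12.63 ± 0.09 in females. Col7a1 averaged 7.34 ± 0.32 in males and 8.71 ± 0.22 in females. Adtrp, a membrane hydrolase, and Serpinb11, a serpin family member, were lower in males by differences of -1.89 and -1.50.

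**Figure D5:**
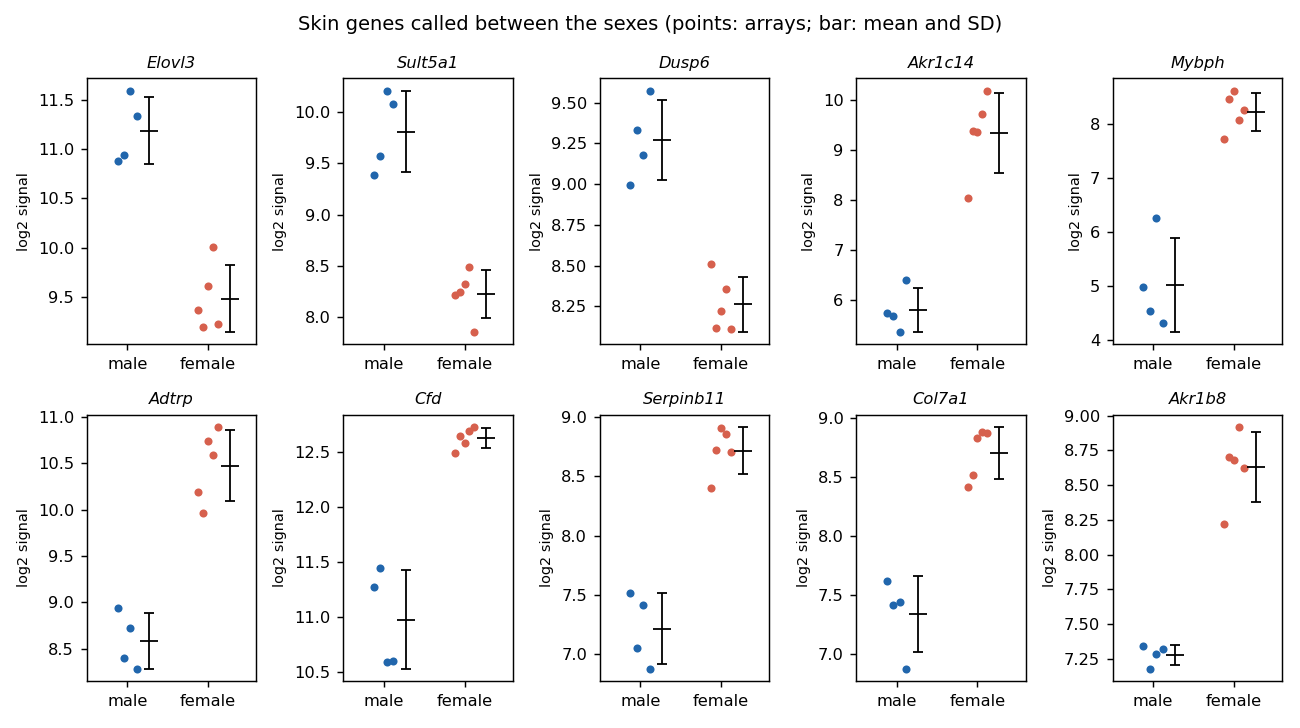
Log2 signal of 10 named genes called between the sexes in skin, on the 4 male (left) and 5 female (right) skin arrays, each panel with its own axis. Bars are means and SD. Elovl3, Sult5a1 and Dusp6 were higher in males and the other 7 genes higher in females.

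These differences were few by this fit, fewer than the paper lists for skin, and rested on small groups. Without male 4, 8 probesets were called in all, and without female 3, female 4 or female 5 there were 7, 10 and 9, while without male 3 there were 39 and without female 1 there were 31. Elovl3 passed in the full set at 0.0414, and its adjusted p was between 0.0589 and 0.119 without those arrays where its call was lost. Over 18 alternatives, single left-out arrays included, the call was lost in 12 for Dusp6, 11 for Cfd, 10 each for Akr1c14 and Sult5a1, 9 each for Elovl3 and Mybph, 8 each for Adtrp, Serpinb11 and Col7a1, and 7 for Akr1b8. The calls of Xist and Eif2s3y were lost in 0 of them. In 1 fit over all organ and sex groups 302 probesets were called, of which 16 were among the 21. The sex difference in skin was also set against the mean sex difference of the other 25 somatic organs, which does not say how it compares with any 1 organ. By that test 1055 probesets had an adjusted p under 0.05 (3.4%), and they included 10 of the 21, or 13 of the 21 without the 4 arrays of other organs at odds with their sex labels. The 21 were chosen on the same 9 skin arrays, so this count is a description and nothing is read from it against the 3.4%. The named genes among the 10 were Elovl3, Akr1c14, Mybph, Adtrp, Serpinb11, Col7a1 and Sult5a1. Elovl3 was below the expression limit in every other organ, with organ means of 2.57 to 3.96, so a sex difference there could not be read. Single organs could have a difference near or past that of skin. On 1 probeset of Akr1c14 the sex difference was -3.51 in skin, against -3.66 in the pancreas. For Adtrp it was -1.89 in skin, against -1.69 in adipose. For Col7a1 it was -1.36 in skin, against -2.17 in the gastrocnemius. Col7a1 was below the expression limit in every other organ, so that value could not be read as a sex difference either. Serpinb11 passed the limit elsewhere only in the testes, so it was below the limit in every other somatic organ. Cfd, Akr1b8 and Dusp6 were not among the 10, at limma adjusted p of 0.648, 0.887 and 0.308, and neither were Xist and Eif2s3y. No list mean was tested between the sexes. Of 24 lists, the array means of 3 did not overlap between the sexes. Basal keratinocyte means were 10.22 to 10.62 in males and 10.76 to 11.17 in females. Sebaceous means were 8.17 to 8.57 in males and 7.81 to 8.06 in females, on a list that holds Elovl3 and Cyp2b12. Blood cell means were 6.22 to 6.57 in males and 5.71 to 5.98 in females. The share of all probesets without overlap was not counted, so nothing about these cell types is read from the 3 lists.

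Milk protein genes were the other group that varied between animals. Csn1s1, the alpha-S1 casein gene, had 2.24, 13.16, 2.66 and 14.89 in males 1, 3, 4 and 5, against 2.30, 12.80, 2.39, 2.26 and 2.25 in females 1 to 5. Lalba, which encodes alpha-lactalbumin, and Csn3, the kappa casein gene, were high on the same 3 arrays. Csn2, the beta casein gene, had 11.67 in male 5 and 3.69 in female 2, and 1.92 to 2.00 on the other skin arrays. The mean of the 7 measured mammary genes was 7.39, 10.30 and 7.39 in male 3, male 5 and female 2, against 2.19 to 2.28 in the other 6 animals. In other organs the highest mean of Csn1s1 was 3.32, in the ovary. As their skin means were below 6.65, none of these genes was called higher in skin.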

How the data were processed

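RNA from tissue samples of the frozen organs of 5 male and 5 female rats was hybridised to RAE230_2 arrays, at most 1 array per organ and animal. The paper states that the same region was sampled in each animal and that arrays of low quality were left out. The deposited values are log2 signals of 31042 probesets, which the authors made by background correction and normalization with GCRMA, named in the submitters' processing notes (its version is not given in the sources used here). Every column was mapped to a sample (0 columns left out). In the platform annotation 20826 probesets had a single gene symbol (20758 of them found in a current gene table), 436 had more than 1 and 9780 had no symbol. Keratins and other near-identical paralogs may share probes, so their separate levels are uncertain.

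The values were used as deposited, without further normalization. limma 3.58.1 in R 4.3.3 was fitted with 1 mean per organ over all 256 arrays, with Benjamini-Hochberg adjustment over all 31042 probesets. Calls asked for an adjusted p under 0.05, a difference above 1 log2 unit and a mean above 6.65. For skin above every other organ the largest of the 30 one-sided p-values was adjusted. Male and female skin were fitted on the 9 skin arrays, and the skin sex difference against the mean of the other 25 somatic organs in 1 organ by sex model. In the organ fit p-values rest on a spread pooled over all organs, with sex left in it. Arrays of the same animal were taken as independent there. The organ by sex model pools the spread likewise, and for Elovl3 its SE was 0.095, against 0.21 in the skin fit. In the skin fit between the sexes, p-values rest on the spread between animals of a sex. No skin RNA was pooled, and the number of arrays limits the precision. The scripts were tested on simulated data with known differences.

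Genes were named by rule: the 25 with the widest margin above the other organs, up to 10 in each direction of the stomach and sex comparisons, the 10 most variable, up to 5 per list, and members given for contrast. Members and lists were chosen with earlier results of these data known. For lists, the probeset with the highest mean over all arrays stood for its gene. Promoters came from RefSeq (GRCr8). Arrays of a sex with the same number were taken to share an animal, which the labels do not state, and the median correlation of skin deviations with those of the same number's other organs was between -0.024 in female 4 and 0.0777 in male 1. Alternatives were other normalizations, thresholds, models and left-out arrays, and the separate fits per organ, the fit on skin and stomach alone and the left-out arrays of the spread count were chosen after seeing the data.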

Additional observations from a re-analysis of the deposited data

Results flagged for a closer look

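Single skin arrays stood apart from the others of their sex on 14 occasions, among 316 groups of 158 genes. Chance gives such a gap in about 1 group in 20, but a range above 1 log2 unit was asked for as well. Some of the genes were also named for their spread, so the 14 cannot be set against that rate. Among the milk protein genes, female 2 had 12.8 for Csn1s1, 11.81 for Lalba, 10.78 for Csn3, 5.626 for Wap and 3.692 for Csn2, above the other 4 females, and male 5 had 11.67 for Csn2, above the other 3 males. Klk10 was 8.603 in male 5, below the other males at 9.512 to 9.641. Cyp2b12 was 10.63 in male 3, above the other males at 9.168 to 9.376. In female 2, Klk8 was 7.949 and Grhl1 9.767, below the other females. S100a9 was 5.872 in female 4, below the other females at 6.681 to 6.955. Mlana was 4.581 in male 1 and 5.397 in female 1, above the others of their sex but below the expression limit. Crabp2 was 10.68 in female 1, above the other females at 9.565 to 9.832.

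Sex differences in skin that differed from the mean of the other somatic organs, as male minus female in skin minus the same elsewhere, were -3.317, -3.106 and -2.745 for the 3 probesets of Akr1c14, -3.202 for Mybph, -1.924 for Adtrp, -1.506 for Serpinb11, -1.292 for Col7a1, 1.579 for Sult5a1 and 1.742 for Elovl3. Without single arrays, the call of Serpinb11 and that of Col7a1 were each lost once, at adjusted p of 0.07 and 0.0541 by limma. Elovl3 and Col7a1 were below the expression limit in every other organ, and Serpinb11 was below it in every other somatic organ.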

How the results depend on the processing

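Counts of male against female skin, higher in males, and of male against female skin, higher in females, moved most. They were 3 and 5 by the methods' t-test and 186 and 116 in 1 fit over all organ and sex groups. With adjustment over probesets expressed in skin they were 45 and 40, and at an adjusted p under 0.01 they were 2 and 5. The paper's own table lists more probesets for skin in each direction than the t-test gave here. The reason for that gap was not tested. At 1.5-fold 11 were higher in males. Leaving out single skin arrays gave 1 to 17 higher in males and 5 to 22 higher in females. With the number as a replicate block the counts were 1 and 8, although a male and a female of 1 number are different animals. With sex and number, taken to mark the animal, as a replicate block across organs, 2222 probesets were higher and 1868 lower than the mean of the other organs and 137 were above every organ, and no count of the organ comparisons moved by over 1.5 times. Without an expression limit 3324 probesets were higher and 2706 lower in skin than in the stomach. At 2 log2 units the counts were 1007 and 669 there, and 1157 and 227 for skin against the mean of the other organs. Separate fits gave 66 above every organ in place of 136, and single left-out skin arrays gave 132 to 139. Without the stomach there were 157. For single genes, 833 values kept their direction and side of the threshold, 114 lost the threshold and 0 reversed. The causes were not tested. Probesets near the background limit have signals that carry little information.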
